A study of Homo sapiens with 8 samples.

Results

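Interferon-stimulated genes are the genes that cells switch on when interferons reach their receptors. A list of 51 such genes was read in xenograft tumours, and 50 of them had a named transcript cluster (the group of probes that reports 1 gene) among the 17709 named clusters of the arrays. The remaining gene, STAT2, is not listed in the supplied annotation and was not analysed here. The list was drawn up with earlier results of these data known, and its members were matched to the array by gene symbol, with 1 cluster for each.

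Type I interferons bind the receptor chains IFNAR1 and IFNAR2, and the kinases JAK1 and TYK2 then activate transcription factors. With IRF9 these form ISGF3, a complex that binds the interferon-stimulated response element in promoters. Interferon gamma acts through its own receptor and a different promoter element, GAS. The induced proteins sense viral RNA, block its translation, trap particles at membranes or feed back on the pathway, and many tumours express part of the set.

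The BORA group held 4 tumours of the human ovarian carcinoma line SK-OV-3 that carried the vector pIND_BORA, which overexpresses BORA. The EV group held 4 tumours of SK-OV-3 cells with the empty vector pIND_EV. All tumours grew in nude mice, which lack a thymus and keep innate immune cells, and total RNA of each tumour went on 1 Affymetrix array. The labels do not say whether tumours of a group came from separate mice or from more than 1 transfected pool, so every p-value reflects nothing beyond the variation among these 8 samples, part of which may be technical. The BORA transcript, the check of the labels, averaged 12.76 ± 0.23 in BORA tumours and 6.63 ± 0.57 in EV tumours on the log2 signal scale (SD, n = 4 each; limma adjusted p = 2.38e-05). PAX8, EPCAM, KRT8 and KRT18, genes of ovarian carcinoma and of epithelium, exceeded the negative controls in both groups, while WT1 and MUC16 did not.

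Array medians of the log2 signal lay between 7.03 and 7.07 in BORA tumours and between 6.96 and 7.02 in EV tumours. The 95th percentile of the 612 negative control rows lay between 7.62 and 8.13 in BORA arrays and between 7.82 and 8.24 in EV arrays. This level, averaged over the arrays of a group where a group mean is set against it, served as the background limit, and a gene under it has an uncertain fold. The chance that a positive control row was brighter than a negative one was 0.9721 to 0.9763 in BORA arrays and 0.9643 to 0.9715 in EV arrays, so array quality by this measure moved with the groups. EV replicate 1 stood apart: over all named clusters its correlation with the other 7 arrays was 0.943 to 0.954, against 0.981 to 0.992 among those 7. The tests were therefore run over all 8 arrays and over the 7 arrays without EV replicate 1. Values stand for all 8 arrays unless the 7 are named.

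Promoter sequence was available for 41 of the 51 genes, as windows from 250 bases before to 50 bases after each transcription start in RefSeq on GRCh38.p14. The response element bound by ISGF3 was searched on both strands as TTTC, any 2 bases and TTTC, which reads as GAAA, any 2 bases and GAAA on the other strand, and the GAS element as TTCNNNGAA, which reads the same on both strands. At least 1 window held the response element motif in 30 of the 41 genes (73.2%), against 4.13% of the 14250 genes of the array with a window and 3.57% of all 35116 windows. TTCNNNGAA was present in 12 of 41 (29.3%), against 9.02% of those genes and 7.66% of all windows. In 5 members (BST2, EPSTI1, IFI27, IFITM1 and MX1) a match of one motif shared bases with a match of the other. The windows of PARP9 and DTX3L overlap, as do those of CMPK2 and RSAD2, so these pairs share sequence. A match is a description of letters and not evidence of binding. The stretches shown belong to 4 genes with the response element motif that were higher in BORA tumours, to ISG15, which holds the same motif and was not, and to IRF9 and OAS1, which had TTCNNNGAA alone. All lie before the transcription start, run 5′ to 3′ on the gene's strand, and have in capitals the matches of the motif named for that gene, the response element for the first 5 and TTCNNNGAA for IRF9 and OAS1. IFI27 and BST2 also hold TTCNNNGAA, which is not marked. IFI6 is at chr1:27672251-27672373 on the minus strand, IFI27 at chr14:94110603-94110675 on the plus strand, BST2 at chr19:17405720-17405785 on the minus strand and IFI44L at chr1:78620259-78620409 on the plus strand. ISG15 is at chr1:1013359-1013424, IRF9 at chr14:24161177-24161235 and OAS1 at chr12:112906769-112906827, all on the plus strand.
IFI6: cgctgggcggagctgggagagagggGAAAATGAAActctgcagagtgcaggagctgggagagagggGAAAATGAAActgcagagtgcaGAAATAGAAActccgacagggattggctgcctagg
IFI27: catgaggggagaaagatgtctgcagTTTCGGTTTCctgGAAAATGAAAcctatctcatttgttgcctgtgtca
BST2: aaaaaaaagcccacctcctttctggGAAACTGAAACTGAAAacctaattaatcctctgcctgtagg
IFI44L: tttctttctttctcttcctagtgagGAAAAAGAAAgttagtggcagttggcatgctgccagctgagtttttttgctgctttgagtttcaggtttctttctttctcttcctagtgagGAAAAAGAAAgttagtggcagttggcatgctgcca
ISG15: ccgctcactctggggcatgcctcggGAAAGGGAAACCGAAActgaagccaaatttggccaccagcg
IRF9: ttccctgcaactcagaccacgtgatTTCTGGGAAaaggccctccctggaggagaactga
OAS1: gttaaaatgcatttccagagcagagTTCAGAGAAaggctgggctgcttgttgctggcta
IFI6 had 3 matches, the first starting 156 bases and the last 93 bases before the start, and in BST2 and ISG15 the 2 matches overlap each other. Among the members past the test threshold over 8 or 7 arrays, 6 of 9 with a window held the response element motif (66.7%), and among the other genes of the list 24 of 32 did (75%), STAT2 included. TTCNNNGAA was in 5 of those 9 (55.6%) and in 7 of those 32 (21.9%).

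Most interferon-stimulated genes were higher in BORA tumours, but few passed the test one by one. Over 8 arrays IFI6 and IRF9 rose (2 of 50 members, 4%; limma, adjusted over all 17709 clusters, threshold 0.05), where 0.102% of all clusters rose. No member fell (0 of 50), where 0% of all clusters fell. Over the 7 arrays without EV replicate 1, 10 members rose (20%), against 0.435% of all clusters, and again 0 fell, against 0.0791%. The 10 were IFI6, IRF9, OAS1, OAS2, BST2, MX1, PARP9, SAMD9L, IFI27 and IFI44L. At an unadjusted p under 0.05, 25 members were higher over 8 arrays, where 7.37% of all clusters were, and 0 were lower, where 7.17% were.

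The median log2 difference of the 50 members, BORA minus EV, was 0.67 over 8 arrays and 0.61 over 7, where the medians of all clusters were -0.026 and -0.029. The log2 difference was above 0 in 44 members (88%), against 46.6% of all clusters, and over 7 arrays in 42 (84%), against 46.1%. Every BORA tumour exceeded every EV tumour in 20 members (40%), against 4.45% of all clusters, and every BORA tumour lay below in 0, against 4.91%. Without EV replicate 1 the groups did not overlap in 25 members, all higher in BORA tumours, against 6.66% of all clusters, and 0 were lower throughout, against 7.68%. The members that overlapped over 8 arrays and not over 7 were IFIH1, SAMD9L, SP100, IFI27 and EPSTI1.

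**Figure D1:**
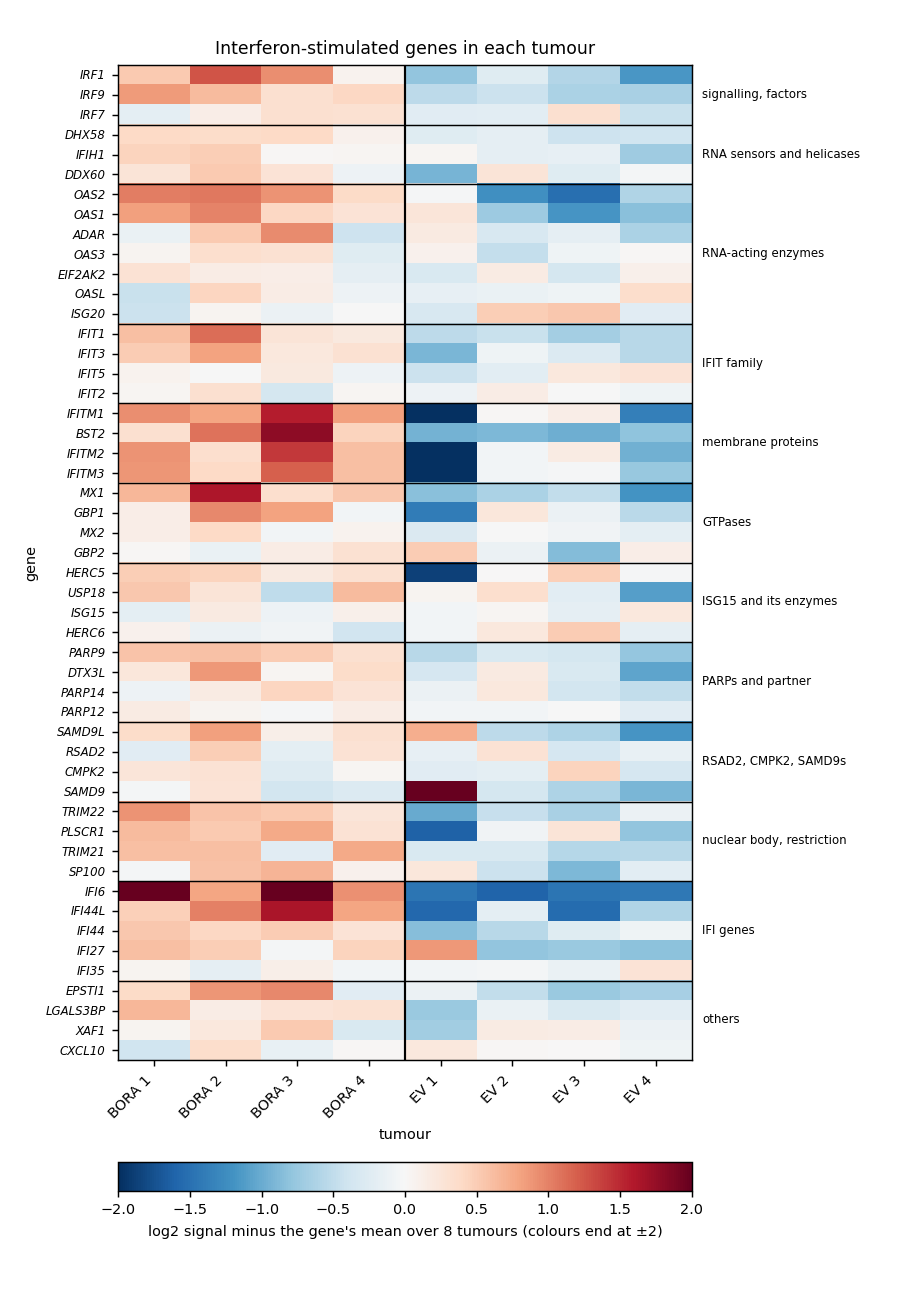
Heat map of the 50 members (rows, grouped by role) in the 4 BORA and 4 EV tumours (columns), as log2 signal minus the gene's mean over the 8 tumours; red is above that mean and blue below, with colours ending at 2 units. IFI6, BST2 and IRF9 are above their mean in all BORA tumours and below it in all EV tumours, while EV replicate 1 departs from its group in both directions, high for SAMD9, SAMD9L and IFI27 and low for IFITM1, IFITM2, IFITM3 and HERC5.

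Tumours differed within each group as well. The mean deviation of the members from their own averages was 0.35, 0.51, 0.40 and 0.20 log2 units in BORA replicates 1 to 4, and -0.46, -0.21, -0.32 and -0.47 in EV replicates 1 to 4. All clusters together stayed within 0.012 and -0.0065 on the same measure. BORA replicate 2 held the highest value of all 8 tumours for 18 members, BORA replicate 3 for 13, BORA replicate 1 for 8 and BORA replicate 4 for 2. EV replicates 1 and 4 held the lowest value for 15 members each. The members' median SD within a group was 0.28 in BORA tumours and 0.34 in EV tumours, against 0.24 and 0.29 over all clusters.

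Signal strength divides the list. By group means, 22 members exceeded the background limit in both groups, 4 (IRF1, DHX58, OAS1 and BST2) in BORA tumours alone and 24 in neither, while 0 exceeded it in EV tumours alone. IFIH1, OASL, GBP1, GBP2, TRIM21, TRIM22, XAF1 and EPSTI1 are among the 24. Of all 17709 clusters, 609 exceeded the limit in BORA tumours alone and 124 in EV tumours alone, so this lean was not particular to the members. Of the 22, 20 were higher in BORA tumours (median log2 difference 0.73), where 63.8% of the 6861 clusters of that class were (median 0.10). Of the 24 dim members 20 were also higher (median 0.28), where 32.6% of the 10115 dim clusters were (median -0.11). Among all clusters, then, bright ones tended upward and dim ones downward in BORA arrays, while members tended upward in both classes. After quantile normalization 46 of 50 members were higher, with a median of 0.55 against -0.011 for all clusters.

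The regulators at the centre of the pathway were among the higher members. IRF9, the DNA-binding subunit of ISGF3, was at 9.84, 9.62, 9.31 and 9.41 in BORA tumours and at 8.47, 8.57, 8.36 and 8.34 in EV tumours on the log2 signal scale. The groups were separate and narrow, and all 8 values lay above the background limit of their array. With a log2 difference of 1.11 (SE 0.16), IRF9 rose 2.16-fold at a limma adjusted p of 0.0449. This call passed in 3 of 8 other settings over 8 arrays. Among those where it did not, the limma adjusted p was 0.0611 after quantile normalization, 0.0551 after centring, 0.0574 with trend and robust fitting and 0.153 in the ordinary test. IRF1, a transcription factor induced mainly by interferon gamma, was at 8.19, 8.92, 8.61 and 7.74 in BORA tumours and at 6.89, 7.43, 7.09 and 6.51 in EV tumours. Its groups did not overlap either, but its log2 difference of 1.39 (SE 0.28) did not pass (limma adjusted p = 0.129, and 0.0758 without EV replicate 1). IRF7, which drives the secondary wave of interferon production, was dim in both groups and differed by 0.28 (limma adjusted p = 0.535).

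IFI6, which encodes a small membrane protein that opposes cell death and viral replication, had the largest log2 difference of the list. It was at 12.34, 10.92, 12.14 and 11.04 in BORA tumours and at 8.66, 8.53, 8.66 and 8.68 in EV tumours. BORA replicates 1 and 3 stood above replicates 2 and 4, while the EV tumours, EV replicate 1 included, were nearly level. The log2 difference of 2.98 (SE 0.32) was a rise of 7.88-fold at a limma adjusted p of 0.0227, and without EV replicate 1 it was one of 7.93-fold at 0.00511.

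Other members named for interferon induction behaved differently from each other. IFI44L, a feedback regulator of the response, was at 5.50, 6.03, 6.66 and 5.81 in BORA tumours and at 3.45, 4.82, 3.49 and 4.43 in EV tumours, all below the background limit. The groups did not overlap, and the log2 difference was 1.95 (SE 0.35, limma adjusted p = 0.104), or 1.75 without EV replicate 1, when it rose (limma adjusted p = 0.0498). IFI44, its neighbour and relative, did not pass in either fit and was dim in both groups, at a log2 difference of 0.87 with no overlap.

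IFI27, a mitochondrial protein gene much used as a blood marker of viral infection, depended on EV replicate 1. It was at 11.78, 11.68, 11.15 and 11.63 in BORA tumours and at 12.04, 10.39, 10.43 and 10.36 in EV tumours. EV replicate 1 was the highest of all 8, and the other EV tumours lay close together below every BORA tumour. The log2 difference was 0.75 over 8 arrays (SE 0.36, limma adjusted p = 0.380). Without EV replicate 1 IFI27 rose 2.24-fold, with a log2 difference of 1.16 (SE 0.18) and a limma adjusted p of 0.0250. IFI35, a partner of NMI, was dim and at -0.025 over 8 arrays.

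Membrane proteins were the role group with the largest median log2 difference, 1.72 over 8 arrays and 1.27 over 7, and the groups did not overlap in any of its 4 genes. BST2, which encodes tetherin, the tether that holds budding virus at the cell surface, was at 8.83, 9.60, 10.31 and 8.96 in BORA tumours and at 7.57, 7.61, 7.54 and 7.72 in EV tumours. All EV values lay below the background limit of their array and all BORA values above it, so the fold of 3.52 is uncertain. The log2 difference of 1.82 (SE 0.30) did not pass over 8 arrays (limma adjusted p = 0.0852), and BST2 rose without EV replicate 1 (1.80, SE 0.31, limma adjusted p = 0.0357).

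The IFITM proteins block the fusion of viruses with cell membranes. IFITM1 was at 17.14, 17.00, 17.78 and 17.04 in BORA tumours and at 13.29, 16.23, 16.34 and 14.85 in EV tumours. EV replicate 1 was the lowest and EV replicate 4 the next lowest, and the same order of EV tumours held for IFITM2 and IFITM3. The log2 differences were 2.06, 1.63 and 1.54 for IFITM1, IFITM2 and IFITM3 (limma adjusted p = 0.209, 0.229 and 0.211), and 1.43, 1.10 and 1.05 without EV replicate 1 (0.0972, 0.132 and 0.0906). None of these passed. The IFITM genes are close copies of each other, so probes of one may read the others, and their clusters are not independent measurements.

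**Figure D2:**
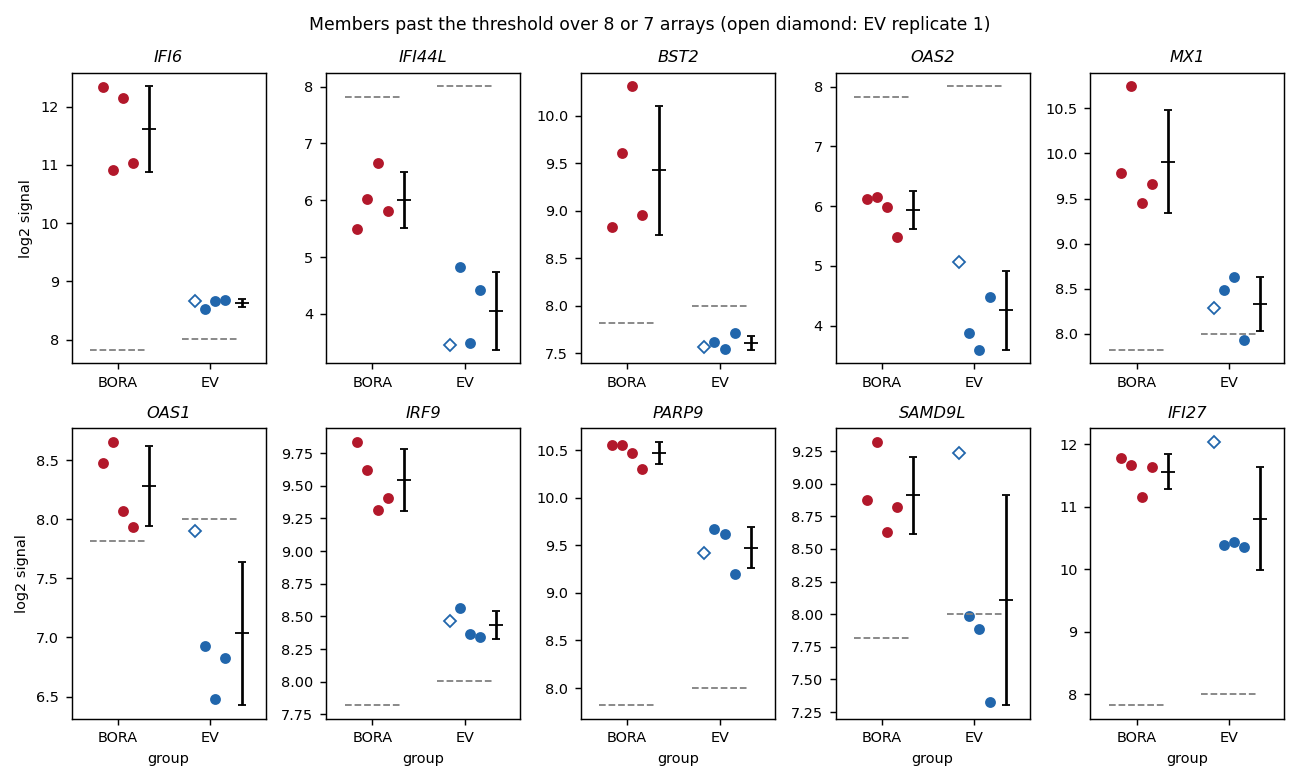
Log2 signal of the 10 members past the threshold over 8 or 7 arrays in each BORA tumour (red) and EV tumour (blue; open diamond, EV replicate 1), with the group mean and SD as black bars (n = 4 each) and the background limit of each group as dashed grey lines. BORA and EV tumours are separate in all but SAMD9L and IFI27, where EV replicate 1 lies within or above the BORA values, and IFI44L and OAS2 lie below the dashed lines in both groups.

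The oligoadenylate synthetases OAS1 and OAS2 were the RNA-acting enzymes with the largest log2 differences. They sense double-stranded RNA and make the messenger that activates RNase L. OAS1 was at 8.48, 8.66, 8.07 and 7.94 in BORA tumours and at 7.90, 6.93, 6.48 and 6.83 in EV tumours. OAS2 was at 6.11, 6.16, 5.99 and 5.48 in BORA tumours and at 5.07, 3.87, 3.59 and 4.48 in EV tumours, all below the background limit. EV replicate 1 was the highest EV tumour for both, and neither gene overlapped between groups.

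Over 8 arrays neither OAS1 (log2 difference 1.25, limma adjusted p = 0.161) nor OAS2 (1.68, limma adjusted p = 0.108) passed. Without EV replicate 1 OAS1 rose 2.91-fold (1.54, SE 0.21, limma adjusted p = 0.0132) and OAS2 3.87-fold (1.95, SE 0.24, limma adjusted p = 0.00998). OAS3 and the catalytically inactive relative OASL differed by 0.23 and 0.018 over 8 arrays, with 95% intervals of -0.19 to 0.65 and -0.46 to 0.49, and did not pass in either fit. Intervals are limma's, unadjusted.

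The other RNA-acting enzymes did not pass in either fit. EIF2AK2, the kinase PKR that stops translation on double-stranded RNA, was bright in both groups and differed by 0.20 (95% interval -0.20 to 0.60). ADAR, the enzyme that edits adenosine to inosine, differed by 0.47 (-0.21 to 1.15). ISG20, an exonuclease gene, had the lowest log2 difference of the list, -0.25 (-0.77 to 0.27), and was dim in both groups.

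The RNA helicases that sense viral RNA or assist in it were modestly higher and did not pass. DHX58, which encodes LGP2, was at 8.33, 8.30, 8.34 and 8.03 in BORA tumours and at 7.70, 7.76, 7.53 and 7.54 in EV tumours. The groups did not overlap, at a log2 difference of 0.62 (SE 0.14, limma adjusted p = 0.143). IFIH1, which encodes the sensor MDA5, differed by 0.50 (limma adjusted p = 0.312) and DDX60 by 0.48 (0.419).

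The IFIT genes, whose proteins bind foreign RNA ends, were below the background limit in both groups on average, and 0 of 4 passed in either fit. IFIT1 was at 5.87, 6.40, 5.53 and 5.47 in BORA tumours and at 4.75, 4.82, 4.60 and 4.72 in EV tumours. The EV tumours were level, and every BORA tumour lay above them, at a log2 difference of 1.09 (SE 0.21, limma adjusted p = 0.117, and 0.0671 without EV replicate 1). IFIT3 did not overlap between groups either (log2 difference 0.92), while IFIT2 and IFIT5 overlapped and differed by 0.02 and 0.083.

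The dynamin-like GTPase MX1, an inhibitor of influenza and other viruses, was at 9.78, 10.74, 9.46 and 9.66 in BORA tumours and at 8.28, 8.49, 8.63 and 7.93 in EV tumours. BORA replicate 2 was the highest, and the lowest BORA tumour exceeded every EV tumour. The log2 difference of 1.58 (SE 0.28) did not pass over 8 arrays (limma adjusted p = 0.0994). Without EV replicate 1 it was 1.56, a rise of 2.95-fold with a limma adjusted p of 0.04996, just under the threshold. MX2 was dim in both groups at a log2 difference of 0.28, and the guanylate-binding proteins GBP1 (0.92) and GBP2 (0.17) overlapped between groups.

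ISG15 and its enzymes did not pass in either fit and overlapped between groups, at a median log2 difference of 0.23 over 8 arrays. ISG15, the ubiquitin-like protein that names the class, was at 5.44, 5.82, 5.54 and 5.73 in BORA tumours and at 5.58, 5.67, 5.45 and 5.85 in EV tumours. All values lay below the background limit, so the log2 difference of -0.0047 (95% interval -0.35 to 0.34) compares signals near background. HERC5, the ligase that attaches ISG15, was at 10.42, 10.37, 10.10 and 10.22 in BORA tumours and at 8.06, 9.93, 10.39 and 9.90 in EV tumours, with EV replicate 1 far below the rest. It did not pass over 8 arrays (log2 difference 0.70, limma adjusted p = 0.477) or without EV replicate 1 (0.20, limma adjusted p = 0.642). HERC6, a relative of HERC5, was at -0.24, and USP18, which removes ISG15 and blocks the receptor IFNAR2, was dim at 0.46.

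PARP9 and its partner DTX3L form a ubiquitin ligase complex. PARP9 was at 10.55, 10.56, 10.48 and 10.30 in BORA tumours and at 9.42, 9.67, 9.62 and 9.19 in EV tumours, bright and without overlap. The log2 difference was 0.99 over 8 arrays (SE 0.15, limma adjusted p = 0.0712) and 0.98 over 7, when PARP9 rose by 1.97-fold (limma adjusted p = 0.0467). DTX3L, whose start faces that of PARP9, differed by 0.76 and overlapped (limma adjusted p = 0.280). PARP12 and PARP14, other ADP-ribosyltransferases, differed by 0.17 and 0.39 and did not pass.

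SAMD9 and its neighbour SAMD9L restrict poxviruses and growth. SAMD9L was at 8.87, 9.32, 8.63 and 8.82 in BORA tumours and at 9.24, 7.98, 7.89 and 7.32 in EV tumours. EV replicate 1 lay within the BORA range, and the other EV tumours lay below it. The log2 difference was 0.80 over 8 arrays (SE 0.36, limma adjusted p = 0.346), and without EV replicate 1 SAMD9L rose by 2.27-fold (1.18, SE 0.22, limma adjusted p = 0.0498). SAMD9 was at 8.77, 9.06, 8.44 and 8.53 in BORA tumours and at 11.08, 8.44, 8.18 and 7.89 in EV tumours, with EV replicate 1 far above the rest. Its log2 difference was -0.20 over 8 arrays and 0.53 over 7, and passed in neither. RSAD2, which encodes viperin, and its neighbour CMPK2 were dim in both groups and differed by 0.18 and 0.16.

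Restriction proteins of the nucleus and cytoplasm had a median log2 difference of 0.99, with no overlap in 3 of 4 genes and 0 past the threshold. TRIM22, a ubiquitin ligase with antiviral activity, was at 8.13, 7.79, 7.76 and 7.47 in BORA tumours and at 6.22, 6.77, 6.58 and 7.12 in EV tumours. Its groups did not overlap, at a log2 difference of 1.12 (SE 0.22, limma adjusted p = 0.129). TRIM22 and TRIM21 lay below the background limit by both group means, so their folds are uncertain. TRIM21, the receptor for antibody inside cells, PLSCR1, a phospholipid scramblase, and SP100, a nuclear body protein, differed by 0.87, 1.10 and 0.65 (limma adjusted p = 0.175, 0.243 and 0.309).

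The remaining 4 members did not pass in either fit. EPSTI1 was at 6.45, 6.95, 7.03 and 5.83 in BORA tumours and at 5.96, 5.58, 5.33 and 5.40 in EV tumours. BORA replicate 4 fell within the EV range, at a log2 difference of 1.00 (SE 0.27, limma adjusted p = 0.191), or 1.13 over 7 arrays (limma adjusted p = 0.0959). LGALS3BP, a secreted glycoprotein gene, was bright and did not overlap, at 0.69 (limma adjusted p = 0.185). XAF1, an antagonist of the apoptosis inhibitor XIAP, differed by 0.25. The T cell chemokine CXCL10, a classical target of interferon gamma, was dim in both groups and differed by -0.081 (95% interval -0.48 to 0.32).

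**Figure D3:**
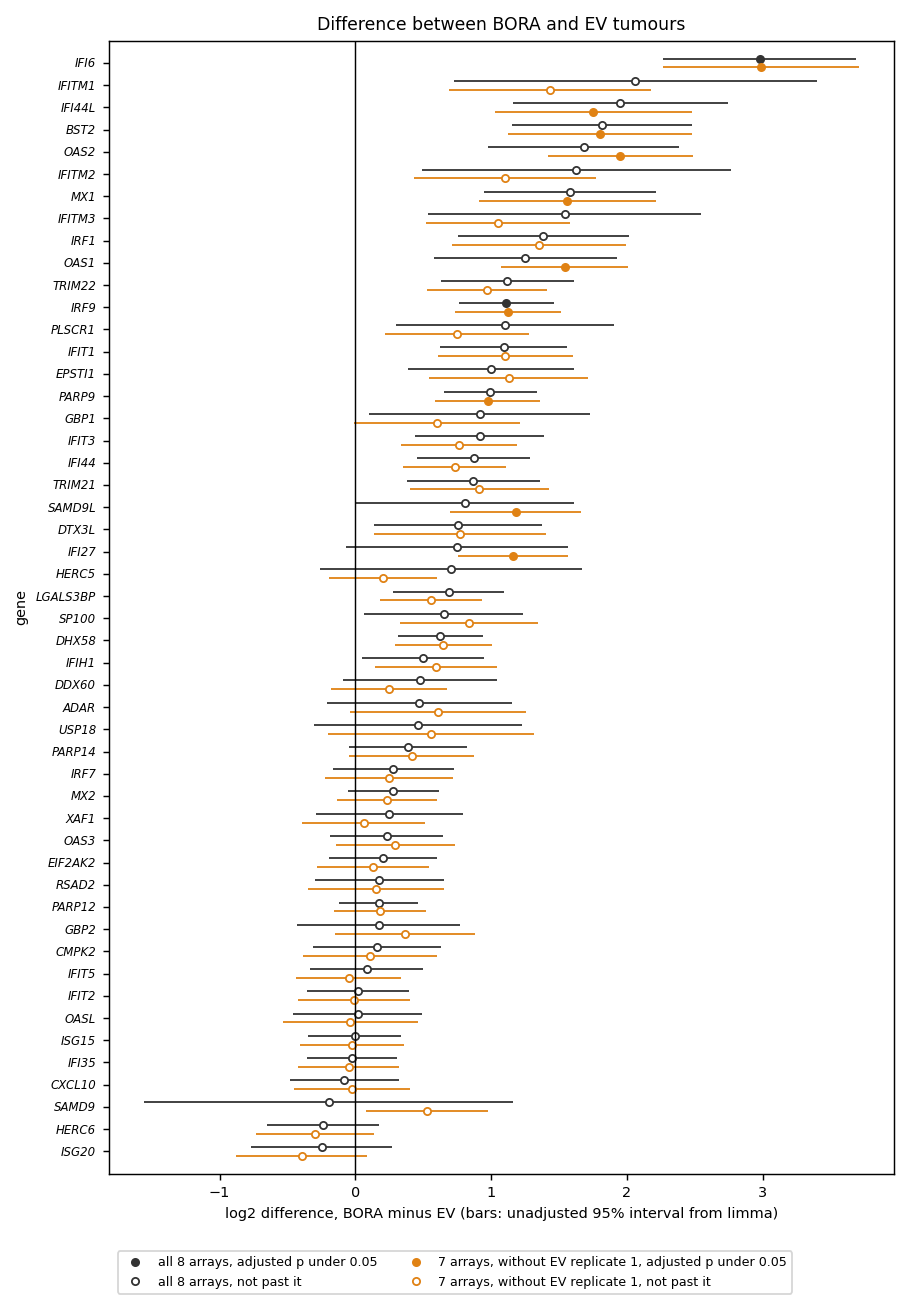
Log2 difference, BORA minus EV, of each of the 50 members with limma's unadjusted 95% interval, over all 8 arrays (dark grey) and over 7 arrays without EV replicate 1 (orange); filled points are past an adjusted p of 0.05 over all 17709 clusters. Points run from IFI6 at 2.98 to ISG20 at -0.25 over 8 arrays, and IFI6 and IRF9 are filled in both.

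The single calls rest on few tumours. Over 8 arrays IFI6 lost its call in 4 of 8 cases, on leaving out BORA replicate 3, BORA replicate 4, EV replicate 2 or EV replicate 3 (largest limma adjusted p = 0.0875), with log2 differences of 2.73 to 3.21. IRF9 kept its call in 1 of 8 such cases, without EV replicate 1, with log2 differences of 1.01 to 1.19. Over the 7 arrays IFI6, OAS1 and OAS2 passed whichever further array was left out (7 of 7). IRF9 passed in 4 of 7 cases (not when BORA replicate 2, BORA replicate 4 or EV replicate 3 was out) and BST2 in 3 (lost also without EV replicate 2). IFI27 passed in 2 (not when any of BORA replicates 1, 2 and 4 and EV replicates 2 and 3 was out), IFI44L in 2 (not when any of BORA replicates 2, 3 and 4 and EV replicates 3 and 4 was out), and MX1, PARP9 and SAMD9L in 0.

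A second list held 73 interferon pathway genes, 64 of them measured. It covered interferons, receptors, kinases and STATs, sensors and adaptors, inhibitors and other IRFs. It also held further induced genes, 24 of them measured. None of the 64 passed in limma over 8 or 7 arrays (0 of 64). At an unadjusted p under 0.05 over 8 arrays 17 were higher, induced genes such as PML and PSMB9 among them, and 2 lower. The background shares are those given for the members, with 7.17% of all clusters lower at an unadjusted p under 0.05. All 8 measured interferon genes (IFNA1, IFNA2, IFNB1, IFNK, IFNG, IFNL1, IFNL2 and IFNL3) lay below the background limit in both groups, at no more than 6.06 in any tumour. IFNA1, IFNL2 and IFNL3 have close copies that their probes may also read. The probes are human, so interferon transcripts of mouse cells in the tumours may go unread. IFNB1, the interferon made first by infected cells, was at 4.23, 3.84, 3.99 and 4.30 in BORA tumours and at 4.38, 4.27, 4.90 and 4.48 in EV tumours, with a log2 difference of -0.42 (limma adjusted p = 0.337). IFNL1 was lower in every BORA tumour than in any EV tumour, at a log2 difference of -0.33 (limma adjusted p = 0.397). It was the 1 pathway gene of 64 with that order over 8 arrays (1.56%, against 4.91% of all clusters). Over 7 arrays 3 had it (4.69%, against 7.68% of all clusters), IFNL1, IFNK and IFNL2, all below the background limit. These shares of lower genes are under those of all clusters. Every BORA tumour exceeded every EV tumour in 14 of the 64 over 8 arrays (21.9%, against 4.45% of all clusters). Over 7 arrays 16 had that order (25%, against 6.66%). Outside the induced genes, IRF2 (log2 difference 0.52), IRF3 (0.65) and SOCS3 (0.55) were among the 14. IRF3 and SOCS3 lay below the background limit in both groups.

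The receptor chains were measured at levels that overlapped between groups over 8 arrays, while IL10RB did not overlap over 7 (log2 difference 0.49, limma adjusted p = 0.244). IFNAR1 averaged 9.24 ± 0.29 in BORA tumours and 9.47 ± 0.35 in EV tumours, and IFNAR2 12.51 ± 0.40 and 12.19 ± 0.23 (SD, n = 4 each). The log2 differences were -0.23 (95% interval -0.72 to 0.25) for IFNAR1, 0.32 (-0.17 to 0.80) for IFNAR2, -0.34 (-1.11 to 0.43) for IFNGR1 and 0.14 (-0.42 to 0.70) for IFNGR2. IL10RB, shared by the receptors of interferon lambda and interleukin 10, differed by 0.25, and IFNLR1, the specific chain for interferon lambda, was dim and differed by -0.51. TYK2 was the 1 measured kinase without overlap (log2 difference 0.45, limma adjusted p = 0.280), and JAK1 differed by -0.012.

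**Figure D4:**
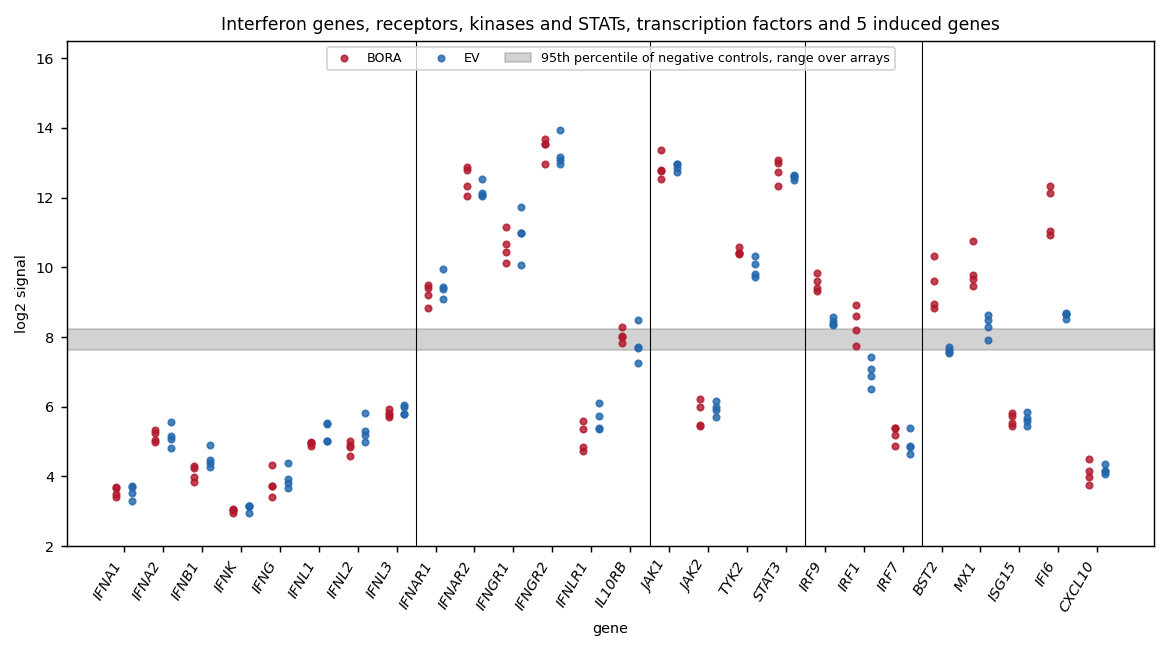
Log2 signal in each BORA tumour (red) and EV tumour (blue) of the measured interferon genes, the receptor chains, the kinases and STATs, the measured transcription factors and 5 induced genes, separated by vertical lines; the grey band is the range of the background limit over arrays. All interferon genes lie under the band, receptor chains overlap between groups, and IRF9, IRF1, BST2, MX1 and IFI6 are higher in every BORA tumour than in any EV tumour.

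None of the 24 measured induced genes outside the member list passed over 8 or 7 arrays. The log2 difference was above 0 in 20 (median 0.56), against 46.6% of all clusters, and below 0 in 4, TNFSF10 (-0.38), LAMP3 (-0.55), CXCL9 (-0.27) and CXCL11 (-0.041). In 9 every BORA tumour exceeded every EV tumour, against 4.45% of all clusters. They were TRIM5 (0.68), GBP3 (0.94), NMI (0.62), UBE2L6, the conjugating enzyme for ISG15 (1.03), PML, the organiser of nuclear bodies (1.21), SP110 (0.95), HELZ2 (0.40), TAP1, the peptide transporter of antigen presentation (0.71), and PSMB9, an immunoproteasome subunit (1.31). Their limma adjusted p-values over 8 arrays were 0.135 to 0.309. Among sensors and adaptors, TMEM173, the adaptor STING, was at 12.30, 11.97, 12.31 and 12.73 in BORA tumours and at 10.78, 11.55, 11.04 and 11.60 in EV tumours. Its groups did not overlap (log2 difference 1.09, limma adjusted p = 0.137), while RIG-I (DDX58 on the list, 0.30) and MAVS (0.43) overlapped.

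Markers of other cells in the tumours were read beside these results. In whole-tumour RNA, fewer cells of a type and less RNA per cell cannot be told apart. Of 5 endothelial markers, PECAM1 (log2 difference 1.56) and CDH5 (2.28) were higher in every BORA tumour, and VWF, KDR and TEK differed by -0.33, -0.062 and -0.49. CDH5, VWF, KDR and TEK lay below the background limit by both group means. The summed endothelial signal was 8.75 to 9.39 in BORA tumours and 7.75 to 8.59 in EV tumours on the log2 scale, so it moved with the groups. The summed signal of 7 measured leukocyte markers, 5 of them under the limit throughout by group means, was 11.61 to 12.26 in BORA tumours, 12.66 to 13.21 in EV replicates 2 to 4 and 10.98 in EV replicate 1. PTPRC, a leukocyte gene, fell without EV replicate 1 (log2 difference -2.07, limma adjusted p = 0.0194). CD68, the other leukocyte marker above the limit, differed by 0.38 over those 7 arrays (limma adjusted p = 0.563). The 5 under the limit were lower over the 7 arrays, CD3E by -0.47, CD14 by -0.31, ITGAM by -0.29, LYZ by -0.27 and ITGAX by -0.52. Of these 5, ITGAX alone was lower without overlap (limma adjusted p = 0.197). The summed signal of 6 fibroblast markers, 3 of them under the limit, was 15.17 to 15.69 in BORA tumours and 14.83 to 15.81 in EV tumours. Among them LUM differed by 2.07 without EV replicate 1, with no overlap (limma adjusted p = 0.112). Over the same 7 arrays COL1A1 differed by 0.19, COL1A2 by -0.17, DCN by -0.14, PDGFRB by -0.40 and PDGFRA by -0.39. PDGFRA, under the limit like PDGFRB and DCN, was lower in BORA tumours without overlap (limma adjusted p = 0.307). Of 3 measured markers of plasmacytoid dendritic cells, the main producers of type I interferon, CLEC4C and IL3RA lay under the limit in both. TCF4, the remaining marker, exceeded the limit in both and overlapped between groups, at a log2 difference of 0.64 (limma adjusted p = 0.463). The probes are human and the host is a mouse, so these values cannot show whether such host cells were present. The summed signal of 7 squamous epithelial markers was 12.86 to 15.03 in BORA tumours, 13.12 to 14.01 in EV replicates 2 to 4 and 18.44 in EV replicate 1, the array where SAMD9, SAMD9L and IFI27 were highest among EV tumours. Without that array the squamous markers did not move together. KRT14 differed by 1.35, with no overlap (limma adjusted p = 0.0915), and S100A8 by -1.22, lower without overlap (limma adjusted p = 0.224). DSG3 differed by -1.14, KRT5 by 0.43, KRT1 by 0.22, KRT10 by 0.0081 and SPRR1A by -0.066. All but KRT5 and KRT14 lay under the limit by both group means over 8 arrays. The part of these cells, of host RNA read by human probes and of array quality in the members' differences was not tested.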

How the data were processed

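The table deposited by the authors holds 1 log2 signal per probe set for each of 8 arrays (24351 rows), for which the submitters' processing notes name Affymetrix Expression Console. Its version, background correction and normalization were not given in the sources used here, and the log2 scale was read from the range of values. Folds are powers of 2 of differences and rest on that reading. The series text names the Human Gene 1.0 ST array, while row identifiers and the supplied annotation belong to another Affymetrix design. Groups and replicate numbers came from the labels. No pair of arrays shared more than 0.0123% of its values.

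All 17709 clusters with 1 gene symbol (0 had several, and 20 symbols had more than 1 cluster, for which the brightest was taken) were tested together with limma 3.58.1 (R 4.3.3), using lmFit and eBayes with no covariate and BORA minus EV as the contrast. The adjustment was Benjamini and Hochberg's, at 0.05, without further normalization or filter. The percentile of 612 negative control rows was taken per array and averaged over a group. Steps were tested on simulated data. The number of arrays limits precision. The members and lists were chosen with earlier results of these data known. All members are named; values in every tumour are given for members past the threshold in either fit and for the largest difference of each role, and receptors are all given. An item withheld from the text is not reported here. Per-tumour values of ISG15, SAMD9, IFNB1 and TMEM173, and the other pathway and marker genes, were named after their values were seen. Older symbols were matched through a gene table of GRCh38.p14; promoter sequences are RefSeq's. The labels give no scan date, so no batch was tested.

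The alternatives tried were quantile normalization, the replicate number as a block, subtraction of array medians, trend with robust fitting, array weights (statmod 1.5.0), a filter keeping clusters above the negative controls in at least 3 arrays, the ordinary test, the mean of a gene's clusters, other control percentiles and leaving out each array.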

Additional observations from a re-analysis of the deposited data

Results flagged for a closer look

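In 6 of 114 groups of 4 tumours examined, 1 tumour lay far from the other 3 by Dixon's criterion, which flags about 1 group in 20 by chance. EV replicate 1 was at 12.04 for IFI27, where the other EV tumours ended at 10.43. EV replicate 4 was the highest EV tumour for OASL (6.16, next 5.71), and EV replicate 2 the lowest for IFI6 (8.53, next 8.66), a small gap within a narrow group. BORA replicate 3 was the highest BORA tumour for IFITM1 (17.78, next 17.14) and the lowest for TRIM21 (6.62, next 7.44). BORA replicate 4 was the lowest BORA tumour for DHX58 (8.03, next 8.30).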

How the results depend on the processing

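The median log2 difference of the members stayed above 0 in every alternative run on all 50 members, over 8 arrays (0.55 to 0.71) and over 7. The filter on dim clusters left 28 members, some of which passed it through the BORA arrays where they are high, so their medians of 0.75 over 8 arrays and 0.81 over 7 support nothing. Over 7 arrays the median was 0.47 to 0.75 when a further array was left out. Counts of risen members moved more. Over 8 arrays, 2 became 0 with the replicate block and in the ordinary test, 1 with quantile normalization, with centring and with the trend (IFI6, IRF9 being lost), 6 with array weights, and 0 to 10 when 1 array was left out, 10 being the count without EV replicate 1. Over 7 arrays, 10 became 5 with the replicate block, 6 with quantile normalization, 6 with centring, 0 in the ordinary test, and 3 to 7 when a further array was left out. The cause of these changes was not tested. No member fell in any of these runs. The ordinary test over 7 arrays also ended the call of the BORA transcript (5.98, adjusted p = 0.137). Deviations of same-numbered tumours had correlations over all clusters of -0.11, 0.039, 0.071 and -0.019. With so few tumours, and EV replicate 1 standing apart, these cannot decide whether the numbers pair tumours, and the labels do not say. With the replicate block the limma adjusted p was 0.126 for IFI6 and 0.158 for IRF9 over 8 arrays. Against the 99th percentile of the negative controls, 12 members were above in BORA tumours and 8 in EV tumours, in place of 26 and 22. Levels near the negative controls, in 24 members of both groups, limit what their differences can show.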

Other observations

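Among the other induced genes, TNFSF10, the death ligand TRAIL, ranged up to 11.95 in BORA tumours, and was at 14.32 in EV replicate 1 and at most 11.74 in EV replicates 2 to 4 on the log2 signal scale. LAMP3, a lysosomal membrane protein gene, ranged up to 6.34 in BORA tumours, and was at 9.08 in EV replicate 1 and at most 6.21 in EV replicates 2 to 4. Both genes were named after their values were seen. In EV replicate 1 SAMD9 was high as well (11.08) while IFITM1 was low (13.29), so this array departed from its group in both directions within the interferon-stimulated genes.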
